A study of Mus musculus with 8 samples.

Results

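Eukaryotic translation factors are the proteins that start, extend and end the synthesis of proteins on the ribosome. Their genes were described here in the cortex of mice expressing a cytoplasmic form of human TDP-43. Members were chosen by name from the deposited list of 10601 genes. They are the genes whose symbol begins with Eif or Eef and a digit, without the Eif2ak kinases and a pair of further Eif genes, together with the termination factors Etf1 and Gspt1 and the genes Mtor, Rptor, Rps6ka1, Rps6kb1, Rps6kb2, Tsc1, Tsc2 and Larp1 of the mTOR pathway. The rule found 65 genes. Of these, 4 carry older Eif2c symbols, and they encode Argonaute proteins of the microRNA pathway and not initiation factors.

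RNA was sequenced from the right cortex of 4 bigenic mice and 4 nontransgenic mice on the C57BL/6 strain, after selection of poly(A)+ RNA. Bigenic mice (Camk2a-tTa / deltaNLS-hTDP-43) carried a tetracycline transactivator under the Camk2α promoter, which is active in forebrain neurons, and human TDP-43 lacking a working nuclear localization signal under a tetracycline responsive promoter. All mice, nontransgenic controls included, were fed doxycycline until 28 days of age and were then kept off it for 10 days, so the transgene was silent before that age. The controls were bred from parents heterozygous for both transgenes, each group held 3 males, and mice with only one of the transgenes were not analysed here. Since whole cortex was used, fewer cells of a type and less RNA per cell cannot be told apart.

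Initiation begins when eIF2 brings the initiator tRNA to the small ribosomal subunit, where eIF3, eIF1 and eIF1A also bind. The eIF4F complex, made of the cap binding protein eIF4E, the scaffold eIF4G and the helicase eIF4A, recruits the mRNA, and eIF5 and eIF5B then promote start codon recognition and joining of the large subunit. The mTOR kinase promotes initiation by phosphorylating 4E-BP proteins, which otherwise hold eIF4E, and by acting on S6 kinases and LARP1. Neurons translate many mRNAs near synapses under the control of this pathway.

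The deposited values are whole numbers made from read counts by a scaling factor per mouse, and they are called normalized counts here. Their totals were between 20.1 M and 22.0 M per mouse, and the steps in the values gave 10.6 M to 31.9 M reads on genes per mouse. At these depths 3 reads were worth between 1.94 and 6.20 normalized counts, and the lowest value of any member in any mouse was 169. A transcript with no gene symbol, taken here as that of the transgene because of its levels and thus no independent check of the labels, ranged from 29375 to 41550 normalized counts in bigenic mice and from 5 to 80 in nontransgenic mice, and endogenous Tardbp from 4908 to 5502 against 6116 to 7116. The bigenic mouse with the fewest reads (10.6 M) stood apart. It was the highest or the lowest of the 4 bigenic mice for 53 of the 65 members, as it was for 81.7% of all genes tested, and for 16 members it differed from the mean of the other 3 by more than 1.5-fold. Values below are given in a fixed order within each group, in which this mouse is the second bigenic mouse, and the effect of leaving it out is given where it changes a call and for the larger moves, with the value of each of the 65 members without it in the plot of log2(fold changes) by role. Sums of marker genes also differed between the groups. Those of astrocytes were 110602 to 127640 normalized counts in bigenic mice against 134277 to 145284 in nontransgenic mice (4 of 8 genes lower by the test described next), those of microglia 3959 to 4944 against 5045 to 6029 (4 of 7 lower), those of neurons 101228 to 129004 against 125381 to 142632 (1 higher and 4 lower of 7), and those of the choroid plexus 14101 to 29169 against 6544 to 8183 (4 of 5 higher). Oligodendrocyte sums were 64955 to 85607 against 65001 to 81434 (1 of 7 higher), endothelial sums were 3825 to 4382 against 4042 to 5177 (1 of 6 lower), and no marker tested was at 0 in any mouse. The part of these differences in the results on translation factors was not tested.

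A filter at 10 RPM, a share of the column total, was passed by all 65 members in one mouse or more, and by 64 in every mouse. The exception was Rps6ka1. Groups were compared with limma on log2(normalized count + 1) over the 10588 genes that passed, and a gene was called higher or lower when its Benjamini-Hochberg adjusted p-value was below 0.05. Log2(fold changes) are bigenic minus nontransgenic, and errors are standard errors from this fit.

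Of the 65 members, 22 were called. The share was 33.8%, against 35.9% of all genes tested, so translation factor genes were called about as often as other genes. By direction, 18 were higher in bigenic mice (27.7%, against 20.5% of all genes) and 4 were lower (6.15%, against 15.4%). The genes that rose were Eif5a2, Eif5b, Larp1, Eif1ad, Eif4ebp2, Eif3b, Eif4g3, Eif4g1, Eif4e2, Tsc1, Eif5, Rptor, Eif3h, Eef1a2, Eif2d, Eif4b, Mtor and Eif3g. Those that fell were Eef1a1, Eif3k, Eif4a2 and Eif2c1. The median log2(fold change) was 0.14 over the members and 0.03 over all genes, with 45 of the 65 members and 5643 of the 10588 genes above 0. Changes were moderate, since the called members that rose did so by 1.18-fold to 1.77-fold, 0 of the 65 were called with a change of 2-fold or more, and 4 of those that rose and 1 of those that fell changed by at least 1.5-fold. The groups did not overlap for 29 members, 24 higher and 5 lower, where 39.0% of all genes did not overlap (22.3% higher and 16.7% lower).

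**Figure D1:**
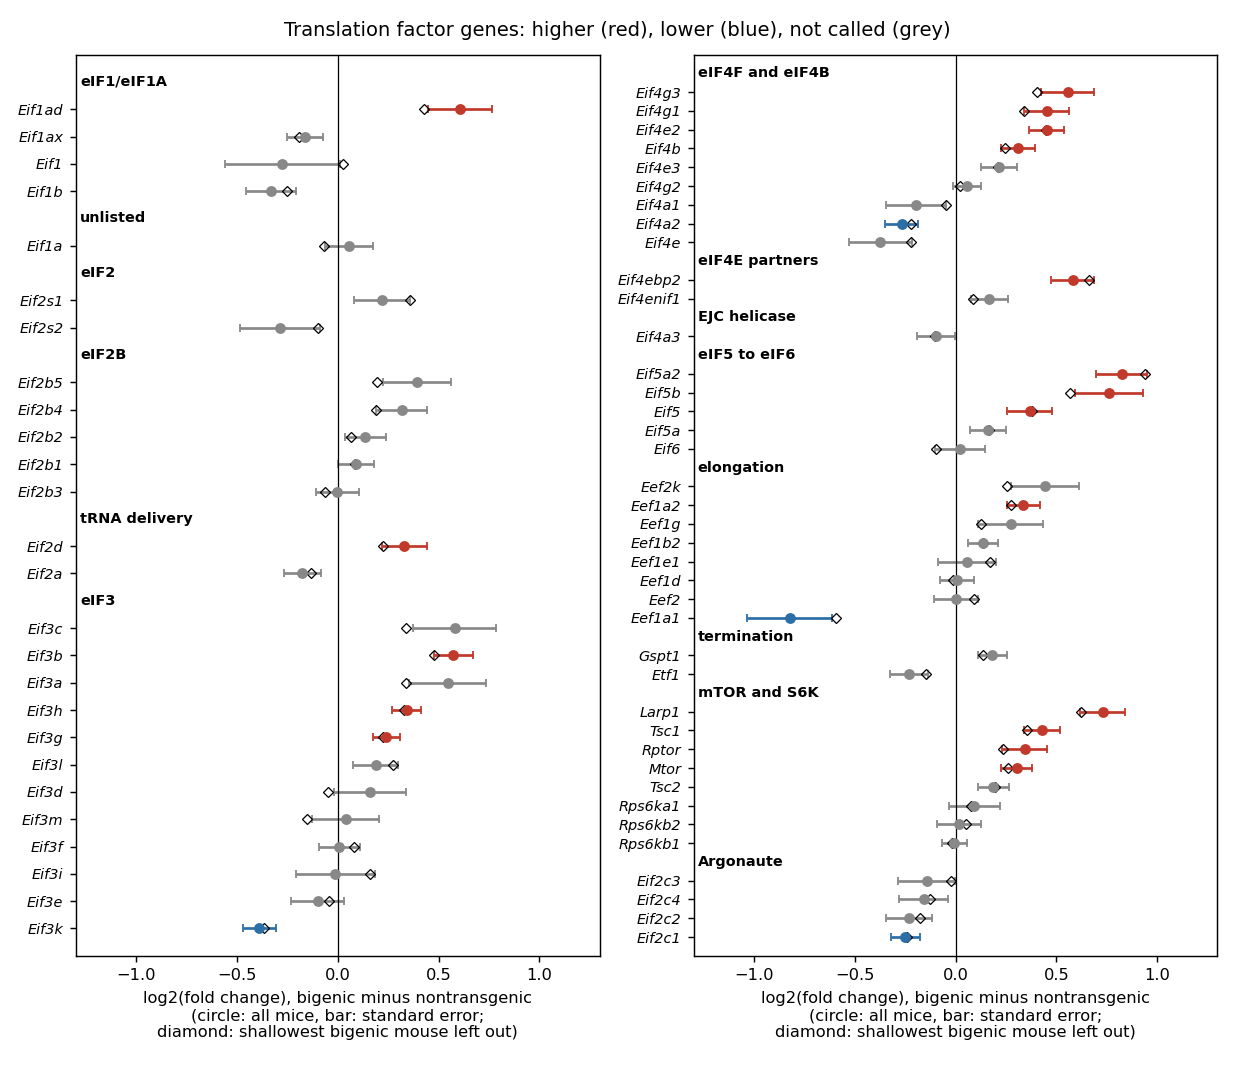
Log2(fold change), bigenic minus nontransgenic, of all 65 translation factor genes by role (circles, with standard errors, n = 4 mice per group), with red and blue for genes called higher and lower by limma and diamonds for the value without the bigenic mouse that has the fewest reads. Red circles (18 genes) spread over most roles, and the blue circle farthest to the left is Eef1a1 at -0.82.

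Without the bigenic mouse of lowest depth, 24 members were called higher and 4 lower (25.3% and 20.2% of all genes). All 18 and all 4 genes called with every mouse in the fit were among them. The genes added by leaving it out were Eif2s1, Eif2b5, Eif3a, Eif3c, Eif3l and Eef2k, all higher. With limma's array weights, which weigh each mouse by its spread, 30 members were called higher and 6 lower (34.1% and 26.9% of all genes). Measured against the nontransgenic mice, the log2 median over members was 0.08, 0.18, 0.15 and 0.14 for the bigenic mice, against 0.04, -0.06, 0.00 and 0.01 when each nontransgenic mouse was measured against the other 3. Each of the 4 bigenic mice lay above each of the 4 nontransgenic mice in this median. The median over all genes tested showed the same order with smaller values, from 0.01 to 0.05 for the bigenic mice and from -0.03 to 0.01 for the nontransgenic mice, so the order is not particular to the members.

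The members that rose had longer transcripts, with a median length of 3910 bases for those called higher, 1834 for those called lower and 2513 for those not called. Across the 65 members the Spearman correlation of log2(fold change) with transcript length was 0.29 (0.27 without the mouse of lowest depth), and across all genes tested it was 0.05. Genes are not independent replicates, and this is a description only. After removal of a trend on length and GC content from each mouse, 20 members were called higher and 4 lower (20.1% and 18.1% of all genes), with 16 of the 18 genes called higher in both.

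Regulatory sequence around the start sites is shown because mRNAs of the translation machinery are known for a terminal oligopyrimidine start, the TOP motif through which LARP1 and mTOR act on translation. RefSeq promoters on GRCm38.p6 were matched for 52 members, and their start sites were taken as annotated. A start annotated away from the base in use is missed by this search, and 13 members had no entry. Eef1a1 and Eef2, for example, had no TOP-like run at their annotated starts. The shares below therefore do not show how many members have TOP mRNAs. A TOP-like start, defined as C at the first base followed by an unbroken run of C or T with at least 5 pyrimidines in all, was found for 1 of the 52 (1.92%, against 3.01% of all genes in the RefSeq table). This was Eif3f, which encodes a subunit of eIF3 and was not called, and 30 bases of it, from 10 before the start, at chr7:108934405-108934434 (plus strand) are given with the pyrimidine run in capitals.
Eif3f: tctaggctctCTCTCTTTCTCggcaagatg

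The E-box CACGTG, which reads the same on both strands and is bound by Myc and by the TFEB family of lysosomal regulators, was searched from 250 bases before to 50 bases after the starts. It was present for 11 of the 52 members (21.2%), against 12.5% of the tested genes with an entry. Among members called higher it was found for 2 of 17, among those called lower for 1 of 4, and among those not called for 8 of 31, so the genes with the motif were not mainly the genes that rose. The windows of the called genes are shown with the motif in capitals, each on the strand of its gene. They lie at chr16:20672661-20672690 and chr16:20672730-20672759 (plus) for Eif4g1, at chr3:28781123-28781152 and chr3:28781148-28781177 (plus) for Eif5a2, and at chr7:28981915-28981944 (minus) for Eif3k. A match describes the letters only and does not show binding.
Eif4g1, before the start: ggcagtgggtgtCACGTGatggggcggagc
Eif4g1, after the start: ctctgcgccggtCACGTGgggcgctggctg
Eif5a2, distal: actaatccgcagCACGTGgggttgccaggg
Eif5a2, proximal: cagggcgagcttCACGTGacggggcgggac
Eif3k: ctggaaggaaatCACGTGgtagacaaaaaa

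Among the factors for scanning and start codon choice, Eif1ad, which encodes a protein with an eIF1A-like domain, was the 1 of 4 that was called (35.9% of all genes tested were called). It measured 583, 949, 570 and 581 normalized counts in bigenic mice against 432, 400, 463 and 423 in nontransgenic mice. The groups did not overlap, and the second bigenic mouse was far above the other 3. Its log2(fold change) was 0.61 ± 0.16 (limma adjusted p = 0.0145), and 0.43 without that mouse. Eif1b, which encodes a close relative of eIF1, measured 1386, 1326, 1835 and 1766 against 1794, 1866, 1983 and 2257 (log2(fold change) -0.33 ± 0.12, limma adjusted p = 0.0608, and -0.41 and 0.0330 without bigenic mouse 3). The groups overlapped for Eif1b by a single bigenic value, and the gene was not called with all mice. Eif1ax, an X-linked gene for eIF1A, measured 1411, 1425, 1282 and 1238 against 1511, 1344, 1477 and 1675 (-0.16 ± 0.09, limma adjusted p = 0.176), and the groups overlapped. For Eif1 the log2(fold change) was -0.28 ± 0.28, with bigenic values from 469 to 1306, and it was 0.02 without the second bigenic mouse. Only 45.6% of the 50-base windows of its exons occur once in the genome. Eif1a, a second eIF1A gene, measured 876, 1239, 940 and 822 against 945, 938, 900 and 903, which overlap (0.05 ± 0.12, limma adjusted p = 0.743).

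The eIF2 complex carries the initiator tRNA, and eIF2B reloads it with GTP. None of the 7 measured genes of these complexes was called by limma with all mice, where 35.9% of all genes tested were called. Of the 7, 2 (Eif2b4 and Eif2b5) had an unadjusted limma p below 0.05, and 5 had log2(fold changes) above 0. Eif2s1, which encodes the α subunit that stress kinases phosphorylate, measured 624, 474, 771 and 699 normalized counts against 570, 520, 573 and 509. Here the second bigenic mouse was the lowest of all 8 and the other 3 were the highest, so the log2(fold change) was 0.22 ± 0.14 (limma adjusted p = 0.241) with it and 0.36 without it (limma adjusted p = 0.00702). For Eif2s2, the β subunit gene, the values were 621, 474, 977 and 842 against 955, 813, 896 and 769 (-0.29 ± 0.20, limma adjusted p = 0.285), with overlapping groups and -0.10 without the second mouse. The catalytic ε subunit of eIF2B is encoded by Eif2b5, which measured 1734, 2769, 1552 and 1545 against 1389, 1403, 1351 and 1471. All 4 bigenic mice were above all nontransgenic mice, and the log2(fold change) of 0.39 ± 0.17 (limma adjusted p = 0.0928) became 0.20 without the second mouse (limma adjusted p = 0.0316). Eif2b4, the δ subunit gene, followed the same order with 563, 732, 497 and 480 against 440, 461, 443 and 454 (0.32 ± 0.13, limma adjusted p = 0.0774; 0.19 and 0.0721 without that mouse). Eif2b2, the β subunit gene, measured 345, 420, 331 and 353 against 320, 347, 334 and 312 and overlapped (0.14 ± 0.10, limma adjusted p = 0.308, and 0.06 without the second mouse). Eif2b1 and Eif2b3 had log2(fold changes) of 0.09 and -0.00.

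Of the other factors that can deliver tRNA to the ribosome, Eif2d was called higher and Eif2a was not called, where 35.9% of all genes tested were called. Eif2d measured 625, 827, 628 and 606 normalized counts against 507, 501, 533 and 583. The groups were separate by a small margin (0.33 ± 0.11, limma adjusted p = 0.0435), and the call was lost when bigenic mouse 1 or 3 or nontransgenic mouse 1, 2 or 3 was left out (limma adjusted p up to 0.116), without the filter (0.0642) and with quantile normalization (0.0627). Eif2a measured 556, 447, 508 and 462 against 580, 538, 579 and 529, with overlap from a single bigenic mouse (-0.18 ± 0.09, limma adjusted p = 0.155).

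The eIF3 complex is the largest initiation factor and bridges the small subunit and eIF4G. Of its 12 measured subunit genes, 3 rose (Eif3b, Eif3h and Eif3g), 1 fell (Eif3k) and 8 were not called. The shares were 25% higher and 8.33% lower, against 20.5% and 15.4% of all genes tested. Eif3b, which encodes a core scaffold subunit, measured 2864, 3696, 2881 and 2807 normalized counts against 2069, 1972, 2020 and 2120. The 4 bigenic mice were all far above the nontransgenic range, and the log2(fold change) was 0.57 ± 0.10 (limma adjusted p = 0.00172). For Eif3h, the gene of a subunit that budding yeast lacks, the values were 2811, 2902, 2776 and 2762 against 2444, 2046, 2192 and 2216. These groups were tight and separate, and the log2(fold change) was 0.34 ± 0.07 (limma adjusted p = 0.00614). Eif3k, which encodes another subunit lacking in that yeast, moved the other way with 837, 757, 829 and 761 against 1050, 1029, 1135 and 960. Its groups did not overlap and its log2(fold change) was -0.39 ± 0.08 (limma adjusted p = 0.00474), with calls in all 8 fits that each left out 1 mouse. Eif3g, whose product binds RNA during scanning, changed by 0.24 ± 0.07 on the log2 scale (limma adjusted p = 0.0190), and lost the call without nontransgenic mouse 1 or 2 (limma adjusted p up to 0.0658).

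Eif3a and Eif3c, the genes of the core subunits that hold eIF3 together, were picked out after their values were seen because they lie at the threshold. Eif3c measured 6000, 10318, 4907 and 5037 normalized counts against 4307, 3907, 4026 and 4523, and Eif3a measured 12873, 19752, 10430 and 10336 against 8582, 7899, 8408 and 10620. Their log2(fold changes) of 0.58 ± 0.20 and 0.54 ± 0.19 both had a limma adjusted p of 0.0504, and without the second bigenic mouse they were 0.34 and 0.34 (limma adjusted p = 0.00646 and 0.0254). That mouse therefore raised the fold change of both genes and widened its error. Eif3l had 0.19 ± 0.11 with it and 0.27 without it (limma adjusted p = 0.217 and 0.0274). The remaining subunit genes Eif3d, Eif3e, Eif3f, Eif3i and Eif3m had log2(fold changes) from -0.10 to 0.16 and were not called with that mouse in or out, and those of Eif3d and Eif3m (0.16 and 0.04) were -0.05 and -0.15 without it. Eif3i (-0.01) was 0.16 without it, and was called higher with array weights at 0.27 (limma adjusted p = 0.0185).

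**Figure D2:**
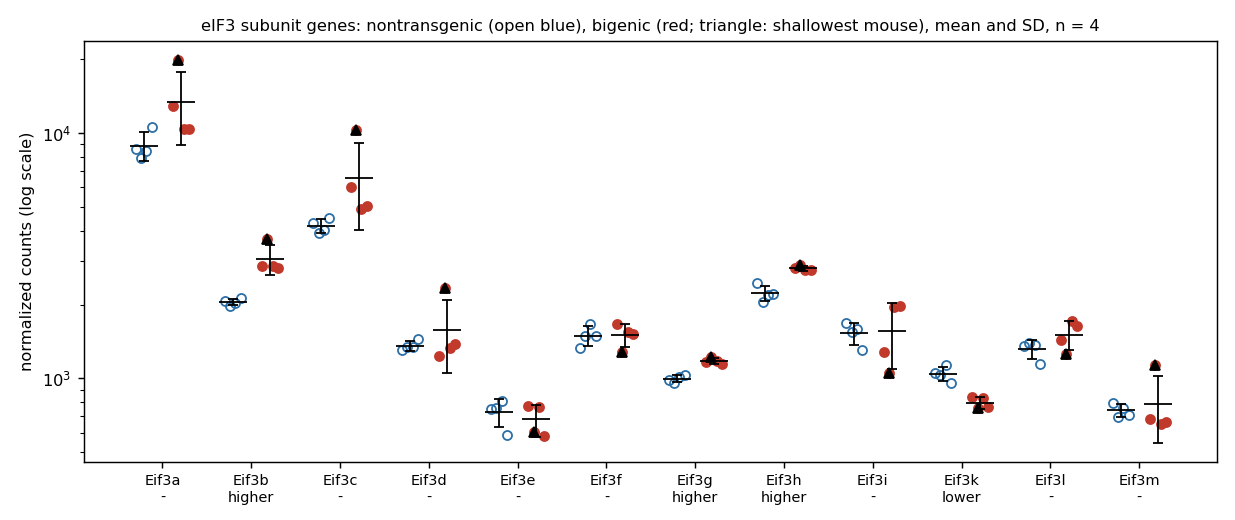
Normalized counts (log axis) of the 12 eIF3 subunit genes in each mouse, with nontransgenic mice as open blue circles, bigenic mice as red circles, the bigenic mouse of lowest depth as a black triangle, and the mean and SD of each group (n = 4) as bars. The groups are separate for Eif3b, Eif3c, Eif3g, Eif3h and Eif3k, and the triangle lies well above the other red points for Eif3a, Eif3c, Eif3d and Eif3m.

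In the group of cap binding and eIF4F genes, 4 of 9 rose (Eif4e2, Eif4g3, Eif4g1 and Eif4b) and 1 fell (Eif4a2), against 20.5% and 15.4% of all genes tested. This group is wider than eIF4F. Of the eIF4F subunit genes themselves, Eif4g1 and Eif4g3 rose and Eif4a2 fell. Eif4e and Eif4a1 had log2(fold changes) below 0 and were not called. Eif4e2 encodes 4EHP, a cap binding protein that does not bind eIF4G and represses translation. It measured 488, 546, 550 and 584 normalized counts in bigenic mice and 407, 407, 406 and 363 in nontransgenic mice, with no overlap (0.45 ± 0.09, limma adjusted p = 0.00357). Both scaffold genes of eIF4F rose. Eif4g3 measured 8132, 12239, 8024 and 7916 against 5911, 6139, 6125 and 6083, and its log2(fold change) was 0.56 ± 0.13 (limma adjusted p = 0.00955). Eif4g1 measured 9250, 12733, 9341 and 9203 against 7592, 6930, 6943 and 7907, with 0.45 ± 0.11 (limma adjusted p = 0.0118). In both genes the second bigenic mouse was far above the other 3, which were close to each other, and without it the log2(fold changes) were 0.40 and 0.34 (limma adjusted p = 0.000122 and 0.00142). Eif4b, the gene of a cofactor of the helicase and a target of S6 kinases, had 0.31 ± 0.08 (limma adjusted p = 0.0167), and its call was lost without nontransgenic mouse 2 or 3 (limma adjusted p up to 0.0577).

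The helicase genes were compared as a pair because eIF4A1 and eIF4A2 can each take part in eIF4F. Eif4a2, which is abundant in brain, measured 6397, 5987, 7364 and 6784 normalized counts against 8522, 7501, 7747 and 8115. Each bigenic mouse was below each nontransgenic mouse by a small margin, and the log2(fold change) was -0.27 ± 0.08 (limma adjusted p = 0.0292). That call was lost without bigenic mouse 1 or 4 or without nontransgenic mouse 1, 3 or 4 (limma adjusted p up to 0.0875) and after removal of the trend on length and GC content (limma adjusted p = 0.133). Eif4a1 measured 570, 432, 743 and 670 against 714, 653, 702 and 648, with overlap (-0.20 ± 0.15, limma adjusted p = 0.327, and -0.05 without the second bigenic mouse). Reads can be counted uniquely over 24.1% of the windows of Eif4a1 and 52.8% of those of Eif4a2, so both are uncertain. Eif4e, the cap binding subunit gene itself, had a log2(fold change) of -0.37 ± 0.16 and Eif4e3 one of 0.22 ± 0.09 (limma adjusted p = 0.0852 and 0.0777). That of Eif4e was -0.22 without bigenic mouse 2, and -0.48 with a call (limma adjusted p = 0.0320) without bigenic mouse 3. Eif4g2, whose product DAP5 supports initiation without eIF4E, had 0.06 ± 0.07.

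Eif4ebp2 encodes 4E-BP2, the main eIF4E repressor of the brain. It measured 652, 571, 712 and 780 normalized counts in bigenic mice and 432, 462, 425 and 485 in nontransgenic mice. All bigenic mice were above the nontransgenic range, with the second the lowest of them, and the log2(fold change) was 0.58 ± 0.11 (limma adjusted p = 0.0026). Eif4enif1, the gene of the eIF4E transporter 4E-T, measured 1355, 1799, 1476 and 1498 against 1393, 1297, 1405 and 1335 and overlapped (0.17 ± 0.09, limma adjusted p = 0.186, and 0.09 without the second bigenic mouse). Eif4a3, which belongs to the exon junction complex and not to eIF4F, measured 391, 453, 474 and 483 against 522, 449, 480 and 471, also with overlap (-0.10 ± 0.10, limma adjusted p = 0.452). Eif4ebp1 and Eif4ebp3 were not analysed here.

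The largest rise of a member was that of Eif5a2 (chromosome 3, 28680233 to 28697768 on mm9), a gene for eIF5A, which helps ribosomes through difficult peptide bonds and carries the amino acid hypusine. Eif5a2 measured 2959, 2281, 3317 and 3150 normalized counts in bigenic mice and 1920, 1526, 1629 and 1499 in nontransgenic mice. The second bigenic mouse was the lowest of the bigenic mice and still above the nontransgenic range, and the log2(fold change) was 0.82 ± 0.13 (1.77-fold, limma adjusted p = 0.00111), or 0.94 without it. Its paralogue Eif5a measured 2070, 2372, 2574 and 2625 against 2295, 2081, 2172 and 2044, where the groups overlapped (0.16 ± 0.09, limma adjusted p = 0.187, and 0.23 and 0.0497 without bigenic mouse 1). The ratio of Eif5a2 to Eif5a, taken within each mouse on normalized counts not corrected for length, was 1.43, 0.962, 1.29 and 1.20 in bigenic mice and 0.837, 0.733, 0.750 and 0.733 in nontransgenic mice. These ratios did not overlap and differed by 0.66 ± 0.13 on the log2 scale (exact permutation test, two-sided, p = 0.0286, the smallest that 70 arrangements allow, and 0.0571 after Benjamini-Hochberg adjustment over the 4 pairs compared). The difference was 0.58 to 0.77 when each mouse was left out, with an exact permutation p of 0.0571 without any one of the nontransgenic mice.

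Of the 5 genes in the role of subunit joining and eIF5 to eIF6, 3 rose (Eif5a2, Eif5b and Eif5) and none fell. The share that rose was 60%, against 20.5% of all genes tested. Eif5b, the gene of the GTPase for joining of the large subunit, measured 5359, 8725, 5062 and 4856 normalized counts against 3491, 3160, 3308 and 3825. The groups were separate and the second bigenic mouse was again far above the other 3, and the change was 0.76 ± 0.17 on the log2 scale (limma adjusted p = 0.00717), or 0.57 without it. Eif5, which encodes the GTPase activating protein of eIF2, measured 7438, 6153, 6134 and 5602 against 5457, 4853, 5190 and 4118. Those groups were separate by a small margin (0.37 ± 0.11, limma adjusted p = 0.0282), and the call was lost without bigenic mouse 1 or nontransgenic mouse 2, 3 or 4 (limma adjusted p up to 0.0692). Eif6, whose product keeps the subunits apart, had a log2(fold change) of 0.02 ± 0.13. Exons of Eif5a2 and Eif5b overlap Gm17485 and Rev1 on the opposite strand. Exon overlaps with another gene were found for 15 members in all. Of the other called genes, Rptor has one on the opposite strand and Eef1a1 one on the same strand. Whether strand was used in counting is not given in the sources used here.

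Among the 8 elongation genes, Eef1a2 rose, Eef1a1 fell and 6 were not called, where 20.5% of all genes tested rose and 15.4% fell. Eef1a2 and Eef1a1 both encode eEF1A, which brings aminoacyl-tRNA to the ribosome, and eEF1A2 is the form that takes over in mature neurons. Eef1a2 (chromosome 2, 180882358 to 180891719 on mm9) measured 23052, 26974, 21853 and 22829 normalized counts in bigenic mice and 18452, 17546, 18827 and 19995 in nontransgenic mice. All bigenic values were above all nontransgenic values (0.34 ± 0.08, limma adjusted p = 0.0106), and after removal of the trend on length and GC content the change was 0.18 (limma adjusted p = 0.0304). Eef1a1 (chromosome 9, 78326256 to 78336958 on mm9) measured 4352, 2707, 5777 and 5398 against 8475, 7771, 8352 and 6556. Each bigenic mouse was below each nontransgenic mouse, the second being the lowest, and the log2(fold change) of -0.82 ± 0.21 (limma adjusted p = 0.0136) was -0.59 without it (limma adjusted p = 0.00147).

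By their limma calls the eEF1A genes changed in opposite directions, and their ratio was also taken within each mouse. The ratio of Eef1a2 to Eef1a1, again on normalized counts, was 5.30, 9.97, 3.78 and 4.23 in bigenic mice and 2.18, 2.26, 2.25 and 3.05 in nontransgenic mice. No bigenic ratio was as low as any nontransgenic ratio. This had to follow, since each gene alone already separated the groups, in opposite directions. The exact permutation p was therefore bound to be the smallest possible, and the test adds nothing to the separation of each gene. The log2 difference, given for its size, was 1.16 ± 0.33 (exact permutation test, two-sided, p = 0.0286, adjusted 0.0571 over the 4 pairs). The difference was 0.87 without the second bigenic mouse (exact permutation p = 0.0286 over 35 arrangements). It was 0.87 to 1.33 when each mouse was left out, with an exact permutation p of 0.0571 without nontransgenic mouse 1, 2 or 3. Eef1a1 has many near-identical copies, and 26.3% of its 50-base windows are unique, against 100% for Eef1a2, so its level rests on few positions. Scaled to 1000 unique windows, the level of Eef1a1 was 21107 ± 2377 (SD, n = 4) in nontransgenic mice and 12354 ± 3722 in bigenic mice, and that of Eef1a2 was 11055 ± 599 and 13993 ± 1335. On that scale Eef1a1 was the most abundant member in nontransgenic mice and Eif4a2 (11307 ± 632) and Eef1a2 did not differ beyond their spread, while Eif2c3 and Eif2c4 were lowest at 72.5 ± 7.24 and 75.6 ± 10.5, which did not differ beyond their spread either.

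**Figure D3:**
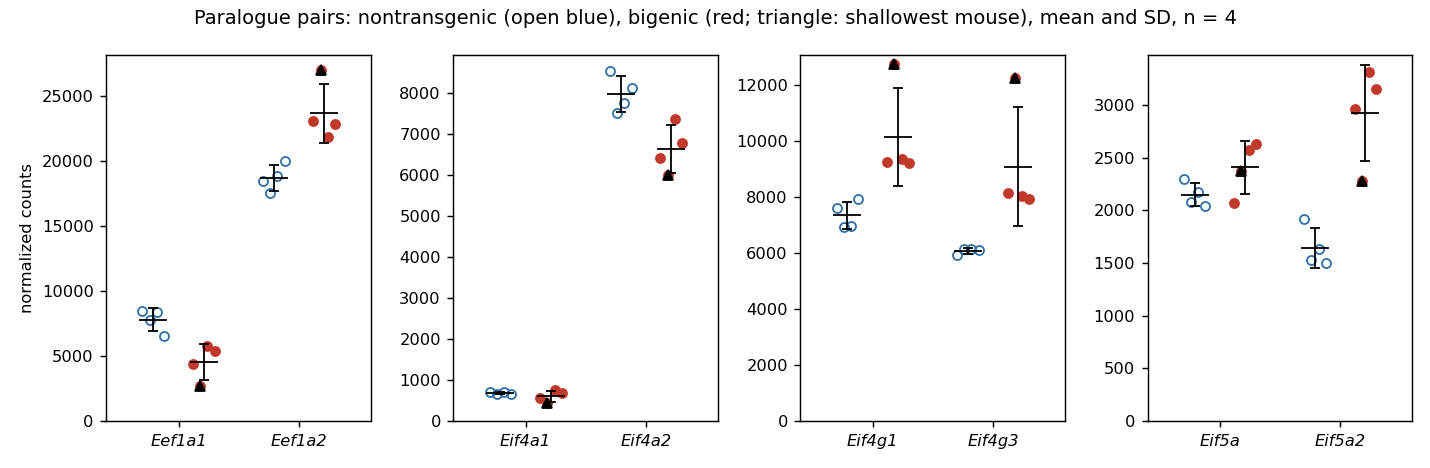
Normalized counts (linear axes from 0, not corrected for length) of 4 paralogue pairs in each mouse, with nontransgenic mice as open blue circles, bigenic mice as red circles, the bigenic mouse of lowest depth as a black triangle, and the mean and SD of each group (n = 4) as bars. Eef1a1 falls while Eef1a2 rises, Eif5a2 rises while the groups of Eif5a overlap, and Eif4g1 and Eif4g3 rise together.

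The ratios of the other pairs overlapped between the groups. No pair compared, those of eEF1A and eIF5A included, had an adjusted exact permutation p below 0.05. The exact permutation test over 70 arrangements allows no p below 0.0286. The adjusted value of 0.0571 for the eEF1A and eIF5A pairs could have been lower only if another pair had also reached that p. The log2 difference of Eif4a2 over Eif4a1 was -0.07 ± 0.12 (exact permutation p = 0.60, and -0.17 with p = 0.0857 without the second bigenic mouse) and that of Eif4g3 over Eif4g1 was 0.10 ± 0.07 (exact permutation p = 0.286, and 0.07 with p = 0.429 without that mouse). Eef2k, the gene of the kinase that inhibits eEF2, measured 707, 1204, 701 and 741 normalized counts against 594, 575, 555 and 681. The bigenic mice were all above the nontransgenic mice, yet the second was so high that the log2(fold change) of 0.44 ± 0.17 had a limma adjusted p of 0.0626, against 0.26 and 0.0258 without it. Eef2 itself, the translocation factor, had 0.00 ± 0.11, with 18940, 17190, 23284 and 23972 normalized counts against 20569, 19984, 21707 and 20180. Its bigenic mice lay on both sides of the nontransgenic range, and with array weights it was called higher at 0.16 (limma adjusted p = 0.0326). The genes Eef1b2, Eef1d and Eef1g of the nucleotide exchange complex and the gene Eef1e1 of the synthetase complex had log2(fold changes) from 0.01 to 0.27 and were not called. Without the second bigenic mouse, Eef1g moved from 0.27 to 0.13 and Eef1e1 from 0.06 to 0.17. Only 38.4% of the 50-base windows of Eef1g are unique.

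The termination factors did not pass the adjusted test, both with an unadjusted limma p below 0.05. Their groups were separate in opposite directions, where the groups were separate for 39.0% of all genes tested. Gspt1, which encodes the GTPase eRF3, measured 6267, 6831, 6018 and 5803 normalized counts against 5751, 5250, 5498 and 5428. The margin was small (0.18 ± 0.07, limma adjusted p = 0.0766). Etf1, the gene of the stop codon reader eRF1, measured 2327, 1946, 2561 and 2462 against 2940, 2587, 2714 and 2626 (-0.23 ± 0.10, limma adjusted p = 0.0854, and -0.15 without the second bigenic mouse).

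In the mTOR group, 4 of 8 genes rose and none fell, where 20.5% of all genes tested rose and 15.4% fell. Larp1, whose product binds TOP mRNAs under the control of mTOR, had the smallest adjusted p-value of all 65 members. It measured 4439, 6378, 4907 and 4806 normalized counts against 3205, 2849, 2945 and 3279, so every bigenic mouse was well above the nontransgenic range (0.73 ± 0.11, limma adjusted p = 0.00109). Tsc1, which encodes hamartin, an inhibitor of the pathway, measured 3819, 4645, 3710 and 3915 against 2903, 2893, 2878 and 3260. These groups were separate as well (0.43 ± 0.09, limma adjusted p = 0.00498). Mtor, the kinase gene, measured 4112, 4401, 3784 and 3906 against 3403, 3121, 3174 and 3430 (0.30 ± 0.08, limma adjusted p = 0.0116). Activators and inhibitors of the pathway were thus both among the genes that rose.

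Rptor, the gene of the mTOR complex scaffold raptor, changed by 0.34 ± 0.11 on the log2 scale (limma adjusted p = 0.0354). Its call was lost without bigenic mouse 4 or nontransgenic mouse 1, 2 or 3 (limma adjusted p up to 0.0961), and those of Rptor and Mtor were lost after removal of the trend on length and GC content (limma adjusted p = 0.0523 and 0.0724). Tsc2, the partner gene of Tsc1, had 0.19 ± 0.08 (limma adjusted p = 0.0875), and passed the test without bigenic mouse 1 (0.24, limma adjusted p = 0.0370). The S6 kinase genes Rps6kb1 and Rps6kb2 and the related Rps6ka1 had log2(fold changes) of -0.01, 0.02 and 0.09 and were not called.

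**Figure D4:**
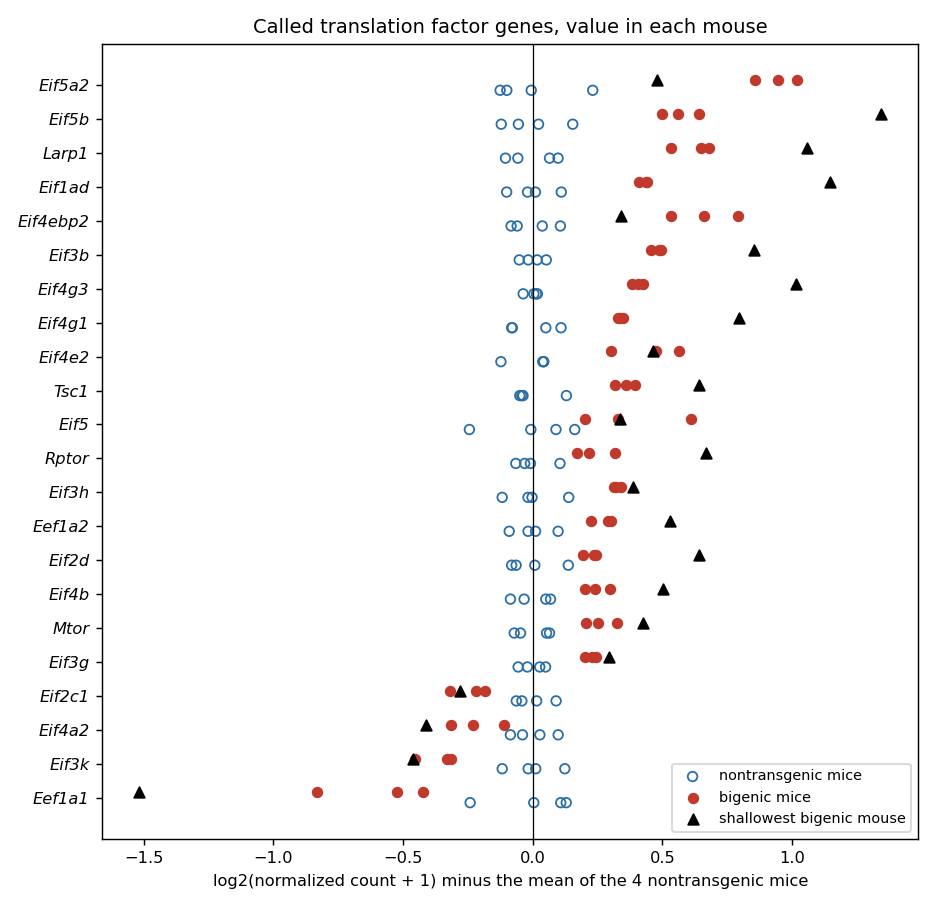
Value in each mouse of the 22 called genes as log2(normalized count + 1) minus the mean of the 4 nontransgenic mice (open blue circles), with bigenic mice in red and the bigenic mouse of lowest depth as a black triangle. For each gene all bigenic points lie on one side of all nontransgenic points, and the triangle is the outermost point for Eif5b, Larp1, Eif1ad and Eef1a1 but the innermost bigenic point for Eif5a2 and Eif4ebp2.

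The 4 Argonaute genes all had log2(fold changes) below 0, although that of Eif2c3 (-0.14) was -0.02 without the second bigenic mouse and 0.11 with array weights. Eif2c1, which encodes Ago1, was called lower, with 1499, 1541, 1647 and 1606 normalized counts against 1789, 1990, 1889 and 1816. No bigenic value reached the nontransgenic range (-0.25 ± 0.07, limma adjusted p = 0.0209), and the call was lost without nontransgenic mouse 2 or 3 (limma adjusted p up to 0.0738). Eif2c2, the gene of the slicing Argonaute Ago2, measured 1271, 1301, 1571 and 1726 against 1813, 1692, 1506 and 1843, which overlap (-0.23 ± 0.12, limma adjusted p = 0.142). Eif2c4 measured 354, 374, 434 and 443 against 390, 458, 416 and 533 (-0.16 ± 0.12, limma adjusted p = 0.329), also with overlap. Without these 4 genes, 18 of the 61 remaining members were called higher and 3 lower (29.5% and 4.92%, against 20.5% and 15.4% of all genes tested).

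Other genes of translation and mTOR signalling were taken from a list of 73, of which 64 were tested. Of the 64, 18 rose and 14 fell, and the median change over the list was -0.02 on the log2 scale, where 20.5% of all genes rose and 15.4% fell. The smallest adjusted p-values among those that rose were for Paip2b, Dhps and Sesn2. Paip2b, which encodes a repressor of the poly(A) binding protein, measured 2582, 2759, 2603 and 2438 normalized counts against 1605, 1578, 1681 and 1657 (0.67 ± 0.07, limma adjusted p = 0.000121). Dhps encodes deoxyhypusine synthase, the enzyme that begins the hypusine modification of eIF5A, and measured 1016, 1239, 804 and 841 against 531, 447, 485 and 515 (0.96 ± 0.14, limma adjusted p = 0.000688). Dohh, which completes that modification, had -0.08 ± 0.08 and was named after its value was seen. Sesn2, a stress-induced inhibitor of mTOR, measured 352, 447, 243 and 331 against 165, 148, 178 and 163 (1.04 ± 0.17, limma adjusted p = 0.0016). For Paip2b, Dhps and Sesn2 all bigenic mice were above all nontransgenic mice. Without the second bigenic mouse, the highest for all of them, their log2(fold changes) were 0.64, 0.84 and 0.90.

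Among those that fell, Rragd and Ncbp1 had the smallest adjusted p-values of the genes reported here. Rragd, a Rag GTPase gene that passes amino acid signals to mTOR, measured 3142, 2463, 2855 and 2917 normalized counts against 4408, 4217, 4284 and 3990 (-0.58 ± 0.09, limma adjusted p = 0.000907). Ncbp1, the gene of the large subunit of the nuclear cap binding complex, measured 1067, 935, 1157 and 1159 against 1576, 1425, 1499 and 1498 (-0.48 ± 0.09, limma adjusted p = 0.00256). All bigenic mice were below all nontransgenic mice for both genes, and without the second bigenic mouse the log2(fold changes) were -0.51 and -0.41. By list, and against the same shares of all genes, 3 rose and 1 fell of 7 poly(A) binding genes, 4 and 1 of 9 recycling and rescue genes, 3 and 1 of 7 other elongation and hypusine genes, 2 and 4 of 12 initiation kinases and repressors, 3 and 3 of 18 mTOR complex and amino acid genes, and 3 and 4 of 11 kinases upstream of mTOR and other S6 kinases.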

How the data were processed

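Right cortex poly(A)+ RNA of 4 bigenic and 4 nontransgenic mice was read as 50-base single-end reads. The authors removed adaptors (cutadapt), aligned to mm9 (Bowtie 0.12.7), retained reads with a single position, counted these per exon with bedtools and summed exons into genes. The deposited values are a signal for each of 28662 transcripts and each mouse, made by scaling the reads of each mouse and rounding. How the scaling was set, and whether strand was used in counting, is not given in the sources used here. A second deposited table holds the authors' DESeq2 means, log2 fold changes with standard errors, p-values and q-values. It was used only for gene symbols and transcript identifiers. Columns show the group but not the replicate number of the labels, and 0 columns were left unmapped.

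A gene was kept when at least one mouse reached 10 RPM of its column total (10588 genes, of which 8980 passed in every mouse), and groups were compared as log2(value + 1) with limma 3.58.1 (lmFit, eBayes with trend) in R 4.3.3, with Benjamini-Hochberg adjustment over all of them and a threshold of 0.05. This scale understates the change of low genes. The p-values measure the spread between these mice. The fit was tested on simulated data with 2-fold changes, where 194 of 200 changed genes were called, as were 14 unchanged genes. Smaller changes, such as those of most members, and a mouse that stands apart were not simulated. Reads per mouse were estimated from the steps in the values. Since whole reads could not be had for all columns, count tests were not run. Ratios of paralogues were compared by exact two-sided permutation tests over 70 arrangements. Lengths, GC content and unique 50-base windows come from GENCODE main transcripts on the mm9 assembly, which approximate the transcripts counted (96.3% of the tested genes had a length). Python 3.11.15, numpy 2.4.6, pandas 2.3.3, scipy 1.17.1 and matplotlib 3.10.9 were used.

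The members, role lists and list of other translation genes were chosen with earlier results of these data known. Values per mouse are given for the 3 members with the smallest adjusted p in each role, for the paralogue pairs and for the 4E-BP genes. Among other translation genes, the 3 with the smallest adjusted p in each direction are given, except 1 gene that is not reported here. Alternatives were pseudocounts of 10 and 0.1, no filter, a filter in every mouse, equal column totals, quantile normalization, array weights, an adjusted p below 0.01, leaving out the Argonaute genes and leaving out each mouse. Removal of a quadratic trend on length and GC content, also without the mouse of lowest depth, and the alternatives for the ratios were added after seeing the data. Genes of the rule's families with no row in the table, such as Eif2s3x, Eif3j and Eif4ebp1, were not analysed here.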

Additional observations from a re-analysis of the deposited data

Results flagged for a closer look

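For the 36 members that the naming rule picks within roles, paralogue pairs and 4E-BP genes, each group of 4 was examined for a mouse far from the other 3, by the ratio of its gap to the whole range (Dixon's test). This flagged 9 of 72 groups, where the nominal rate for independent groups is about 1 in 20. Genes share the same mice, so these groups are not independent, and the rate over all genes is not given. In 7 of the 9 the bigenic mouse with the fewest reads was the highest. Its normalized counts were 1204 for Eef2k, 949 for Eif1ad, 827 for Eif2d, 3696 for Eif3b, 12733 for Eif4g1, 12239 for Eif4g3 and 8725 for Eif5b. All 7 genes were also higher in the other 3 bigenic mice than in any nontransgenic mouse. The 36 members were picked largely by adjusted p, so this separation is no independent support. The other flags were in the nontransgenic group, both in nontransgenic mouse 4, which was lowest for Eif4e2 at 363 and highest for Tsc1 at 3260.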

How the results depend on the processing

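No paired analysis was possible because the columns carry no replicate numbers. The 18 members called higher became 30 with limma's array weights (34.1% of all genes were then called higher) and 9 at an adjusted p below 0.01. The 4 called lower became 1 at that threshold. Leaving out each mouse in turn gave 13 to 24 members called higher and 2 to 6 called lower, the lowest count of 2 without nontransgenic mouse 3. For other translation genes these ranges were 15 to 21 higher and 8 to 16 lower, against 18 and 14, with 6 lower at an adjusted p below 0.01. The lower count was 8 to 9 without nontransgenic mouse 2 or 3. Eif3i reversed from -0.01 to 0.27 with array weights. Called in all 8 fits without 1 mouse were 13 members higher and 2 lower (Eif3k and Eef1a1). Shares over all genes are given for array weights, the mouse of lowest depth left out and the length and GC trend. They are not given for the other settings, whose counts describe the members only and do not compare them with other genes. For 71 single genes, 1058 of 1205 values kept their direction and side of the threshold, 51 newly passed it and 29 no longer passed it. Another 66 changed sign without passing it in either fit. Rescaling moved the median of all genes by less than 0.1 on the log2 scale in every setting tried.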
